A study of Triticum aestivum with 24 samples.

Results

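The microRNAs (miRNAs) of families miR1135 and miR1136 that the degradome of wheat leaves paired with 6 loci are described here, leaving out the pairs with 30S ribosomal protein S3, the cysteine-rich receptor-like protein kinase 41 locus TraesCS2A01G360000 and the glucan synthase-like 10 locus TraesCS5B01G215200. Members were the rows of the authors' target table chosen by miRNA name and locus, with no measured value used. They were 51 of the 239 pairs of a miRNA and a cleavage position, formed by 13 of the 73 miRNAs, 6 of the 62 loci and 15 of the 92 sites of the table. Both families had 70 pairs in all, of which the 19 left out fell on S3 genes (7 pairs), the kinase locus (10) and the glucan synthase locus (2), and 4 miRNAs occurred in those pairs only. No pair of another family fell on the 6 loci in this table. The paper reports more miRNAs and target loci than the table holds, so absences here are not absences from the whole study.

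The libraries came from leaves of Triticum aestivum cv Chinese Spring, all plants descending from 1 selfed individual. At the boot stage, plants were held at 37 °C for 5 days with ample water or stayed under control conditions, and leaves were taken 0, 1 and 4 days after the treatment ended. This gave 24 libraries in 6 groups of 4 replicates (control and heat at each time), each from pooled RNA of 18 plants. The degradome assay, parallel analysis of RNA ends (PARE), sequences the 5′ ends of uncapped, polyadenylated RNA. The table holds 1 value per pair for the whole series, without a library, treatment or time, so no replicate spread exists, the depth per library is not known from the table, and heat could not be compared with control.

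In plants, a miRNA held by an Argonaute protein pairs over most of its length with a transcript, and the Argonaute cuts that transcript opposite bases 10 and 11 of the miRNA. The 3′ fragment then begins at the base that faces base 10, which is where PARE tags pile up. Most plant miRNAs are 21 nt long, while 24-nt small RNAs are mostly made by another Dicer-like enzyme and are best known for guiding DNA methylation. Both size classes occurred among the members.

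The 13 miRNAs were 11 of miR1135 and 2 of miR1136, all named for the 5p arm of their hairpin, and 13 of 13 were identical to the entry of that name in the study's list of miRNA sequences. There was 1 miRNA of 20 nt, 6 of 21 nt and 6 of 24 nt, and all those of 24 nt belonged to miR1135. They carried 7 different seeds, the stretch from base 2 to base 8, and 4 of these seeds were shared by more than 1 miRNA. The 9 sequences below, from the deposited table, show each seed and the closest relatives across and within the families, with the seed in capitals and T for U.
miR1135-1001-5p: gAATTACTtgtcacggaaatg
miR1135-1616-5p: aAATTACTtgtcttggatttgtct
miR1135-1920-5p: gGAATTACttgtcacggaaat
miR1135-836-5p: cCGAATTActtgtcttggatt
miR1135-2157-5p: tTCCGAATtacttgtcgcaga
miR1136-1373-5p: tTCGGAATtacttgtcgcaga
miR1135-1184-5p: gTTCGGAAttacttgtctcggaaa
miR1135-2439-5p: gTTCGGAAttatctgtctcggaaa
miR1135-272-5p: gTTCCAAAttactcgtcgcagaaa

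The seeds differed mainly because the same core began at another base. The run AATTACTTGTC, the longest held by at least 80% of the members, was found in 11 of the 13 miRNAs, starting at base 2 in miR1135-1001-5p, miR1135-1616-5p and miR1135-1969-5p, and as late as base 7 in miR1135-1184-5p. Among all 73 miRNAs of the table, the run occurred in these 11 only, and its reverse complement GACAAGTAATT in 2, both of miR1136. In the study's list, 16 of 201 sequences held the run, 13 of the 27 of miR1135 and 3 of the 16 of miR1136, and no other family had it. The exceptions among the members were miR1135-2439-5p, which differed from miR1135-1184-5p by C12T and T13C, and miR1135-272-5p, which differed from it at 5 bases. In such a token the base of miR1135-1184-5p stands before its position, counted from 1 at the 5′ end, and the base of the other miRNA after it.

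The family names did not follow the sequence distances. Between miR1135-2157-5p and miR1136-1373-5p the only difference was C4G, counted on miR1135-2157-5p, whereas miR1135-2157-5p differed from miR1135-2439-5p at 5 of the 21 bases they share. The 20-nt miR1136-1070-5p was miR1136-1373-5p without its last base. Within miR1135, miR1135-1001-5p and miR1135-1920-5p overlapped over 20 identical bases with a shift of 1 base, and miR1135-1184-5p and miR1135-1403-5p over 23. The 24-nt miR1135-1616-5p and miR1135-1969-5p differed at their opening base only (A1G, counted on miR1135-1616-5p), and the 21-nt miR1135-836-5p shared 19 identical bases with miR1135-1969-5p.

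The binding sequences of the 6 loci are shown because all of them lie on this same core. Each line joins the pairings listed for a locus, in the coding sequence of IWGSC RefSeq v1.0 (1-based, sense strand, 5′ to 3′), and the capitals mark the positions at which cleavage was listed. Genome coordinates were not used here.
Importin subunit beta-1, TraesCS1A01G065000, 897 to 922: tgacaaatctaagACAAgaattttgg
F-box protein, TraesCS5B01G013700, 1321 to 1345: gaagccgtgACAAgtatttccggac
Smad/FHA domain protein, TraesCS6B01G449300, 968 to 996: atccatttccaagAcaAGtaattccgaac
B3 domain-containing protein, TraesCS3B01G610700, 234 to 259: ccgctacgagAcaAgtaattccgaac
Beta-adaptin-like protein, TraesCS1D01G409900, 394 to 418: atttctcgaacgaGtaattccgaac
65-kDa microtubule-associated-like protein, TraesCS7D01G293800, 717 to 741: atccatttccgagAcaagtaattcc

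The gene IDs place these loci on chromosomes 1A, 5B, 6B, 3B, 1D and 7D. The run GACAAGTAATT stood whole in the Smad/FHA, B3 domain and 65-kDa microtubule-associated-like sequences. The F-box, importin and beta-adaptin-like sequences departed from it at 1 or more bases. The loci share no annotation, and where in the cell their products act was not tested. Word lists built around the member annotations found no further locus of nuclear transport, vesicle coats, B3 and auxin response or forkhead-associated proteins in the table. That absence holds for this table only, since the paper names auxin response factors among its targets. The F-box and ubiquitin list matched 4 loci, of which 1 was a member. The kinase list matched 3, none of them a member. The choice of members had left out the cysteine-rich receptor-like protein kinase 41 locus, which had 10 pairs with these families.

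Importin subunit beta-1, a carrier that takes proteins through the nuclear pore, had the highest tag count of the 6 loci. Position 913 held 12 tags (exact Poisson 95% interval 6.20 to 21.0) out of a window of 22, a share of 54.5% (Wilson 95% interval 34.7 to 73.1%). Position 910 held 8 tags (3.45 to 15.8) in a window of 18, or 44.4% (24.6 to 66.3%), and position 911 also held 8, in a window of 26, or 30.8% (16.5 to 50.0%). Position 912 held 6 tags (2.20 to 13.1) in a window of 21, or 28.6% (13.8 to 50.0%). The count intervals of all 4 neighbouring positions overlapped, and the differences between them were not tested.

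These 4 positions were divided among 3 miRNAs, all of miR1135. The 24-nt miR1135-1616-5p was listed at 910 and 911 and miR1135-1969-5p at 910, with scores of 3.5 and 4 (the score is a penalty for imperfect pairing, 0 being perfect). The 21-nt miR1135-836-5p was listed at 912 and 913 with a score of 3. Positions 910 and 913 were both of category 0, the authors' class of most prominent peaks. Here that class did not mark a single highest peak per transcript. Position 912 was of category 1 and 911 of category 2, the only pair of that class among the members. The lowest p-value given by the authors was 0.0002, at 910, and the highest 0.00895, at 911. All 3 miRNAs met the importin sequence with a mismatch inside the seed, at base 6 in each.

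The F-box protein locus, whose class of proteins picks substrates for ubiquitin ligases, was likewise listed at 4 positions in a row. They held 7 tags at 1330 (2.81 to 14.4; window 17), 4 at 1331 (1.09 to 10.2; window 8), 6 at 1332 (2.20 to 13.1; window 15) and 6 at 1333 (same interval; window 15). The shares were 41.2% (21.6 to 64.0%), 50.0% (21.5 to 78.5%), 40.0% (19.8 to 64.3%) and 40.0%, and the intervals overlapped at all 4. All were of category 0, and p-values ran from 0.00142 to 0.0193. The median score over its pairs, 5.5, was the highest of the 6 loci, with a lowest score of 3 for miR1136-1070-5p at 1333. Its 5 miRNAs all had a mismatch in the seed, with 4 to 6 mismatches each.

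Smad/FHA domain protein, named for a fold that binds phosphorylated partners, was paired with 12 of the 13 miRNAs in 18 pairs, more than any other of the 6 loci. Position 981 held 4 tags (1.09 to 10.2) in a window of 6, or 66.7% (30 to 90.3%), with 5 miRNAs and p-values from 7e-05 to 0.00141. Position 984 held 6 tags (2.20 to 13.1) in a window of 16, or 37.5% (18.5 to 61.4%), with 7 miRNAs and p-values from 0.000296 to 0.00295. Position 985 held 5 tags (1.62 to 11.7) in a window of 17, or 29.4% (13.3 to 53.1%), with 6 miRNAs and p-values from 0.000699 to 0.00696. Category was 0 at 981 and 984 and 1 at 985. The miRNA absent from this locus was miR1135-272-5p.

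The closest pairing at Smad/FHA came from 24-nt miRNAs. Scores of 1 belonged to miR1135-1184-5p and miR1135-1403-5p, whose only mismatch lay at base 19 and base 18, respectively. The 21-nt miR1135-1001-5p, miR1135-1765-5p and miR1135-1920-5p scored 2 and were listed only at 981, while miR1136-1070-5p and miR1136-1373-5p scored 3 and were listed at 984 and 985. The highest score there was 5, for miR1135-1616-5p. The pairing of all 12 spans all 3 positions, and the listed position differed with the place where the 5′ end of each miRNA paired. Cuts were listed only opposite a few neighbouring miRNA bases, given below with the common scale. Each miRNA was listed at every one of the 3 positions that these bases could face. Whether the miRNAs differed in where they cut was therefore not tested.

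The B3 domain-containing protein, of a plant class of DNA-binding transcription factors, was paired with 9 miRNAs at positions 244 and 247. Position 244 held 4 tags (1.09 to 10.2) in a window of 6, or 66.7% (30 to 90.3%), and 247 held 6 tags (2.20 to 13.1) in a window of 14, or 42.9% (21.4 to 67.4%). The intervals of both counts and both shares overlapped. Both positions were of category 0. The 3 miRNAs at 244 all scored 5 (p-values 0.00393 to 0.00604), and the 6 at 247 scored from 3 to 5.5 (0.000296 to 0.00531).

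Beta-adaptin-like protein, a subunit class of the adaptors that link cargo to clathrin-coated vesicles, was listed at position 407 only. That position held 5 tags (1.62 to 11.7) in a window of 9, or 55.6% (26.7 to 81.1%), in category 0 with 5 miRNAs and p-values from 0.00240 to 0.0242. Its lowest score was 3.5, shared by miR1136-1070-5p and miR1136-1373-5p, and the highest was 5.5. It was the only locus of miR1135-272-5p. Of its 5 pairings 1, that of miR1135-272-5p, had a seed mismatch, and the others held theirs at base 13 and beyond.

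The 65-kDa microtubule-associated-like protein, of a class that bundles microtubules, was listed at position 730 only, and its values are given although they were seen before it was chosen. It held 4 tags (1.09 to 10.2) in a window of 5, the highest share among the 15 sites at 80.0% (37.6 to 96.4%), in category 0 with 5 miRNAs and p-values from 7e-05 to 0.00330. Here 3 miRNAs of 21 nt, miR1135-1001-5p, miR1135-1765-5p and miR1135-1920-5p, scored 1 with a mismatch at base 13 in miR1135-1001-5p and base 14 in the other two. The remaining pair, of 24 nt, scored 4.5 and 5.5. No miRNA had a seed mismatch at this locus, and none of miR1136 was listed there.

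The same stretch of this transcript also occurred, in the sense direction, in the study's list of miRNAs. Of the 201 sequences, 2 stood whole in the 65-kDa microtubule-associated-like binding sequence, both of miR1136 and of the 3p arm, and the capital marks position 730.
miR1136-228-3p, 718 to 738: tccatttccgagAcaagtaat
miR1136-591-3p, 720 to 740: catttccgagAcaagtaattc

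None of the other 5 loci contained a whole sequence of that list. The longest run shared with any of the 201 was 20 nt for B3 domain (miR1136-1111-3p, miR1136-1752-3p and miR1136-597-3p), 18 nt for Smad/FHA with the same 3 miRNAs, 16 nt for importin (miR1133-6-3p), 13 nt for beta-adaptin-like and 8 nt for F-box. Whether the tags at these positions came from the annotated transcripts or from RNA with the same sequence elsewhere was not tested.

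When the 6 loci were laid on a common scale through the miRNAs they shared, all 15 sites fell on 5 neighbouring positions. The scale sets position 1 at base 981 of Smad/FHA and carries it to the other loci by the place where the same miRNA pairs, and all 44 comparisons of a pair of loci under 1 miRNA gave the same register. Some of these comparisons set the scale, and most of the miRNAs hold the same core, so the 44 are not separate checks. Position 1 was listed at 5 loci (importin 910, F-box 1330, Smad/FHA 981, B3 domain 244 and 65-kDa microtubule-associated-like 730) with 4 to 8 tags. Positions 2 and 3 were listed at importin and F-box only, position 2 with 8 and 4 tags and position 3 with 6 at both. Position 4 was listed at 4 loci (importin 913, F-box 1333, Smad/FHA 984 and B3 domain 247) with 6 to 12 tags, and position 5 at Smad/FHA 985 and beta-adaptin-like 407 with 5 tags each. The pairing itself confines the scale: with cuts listed opposite bases 10 to 12, or to 13 for 24-nt miRNAs, the 13 miRNAs could have reached 9 positions, from -1 to 7.

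Where 2 loci were both listed at a scale position and had the same bases downstream, they had the same number of tags there. Within the listed binding sequences, 5 combinations of loci at the same scale position were identical from the cut onward, over 12 to 16 bases, and all 5 had equal counts. Smad/FHA 981 and B3 domain 244 shared 16 bases and 4 tags, and both shared 12 bases and the count of 4 with 65-kDa microtubule-associated-like 730. Smad/FHA 984 and B3 domain 247 shared 13 bases and 6 tags, and Smad/FHA 985 and beta-adaptin-like 407 shared 12 bases and 5 tags. Several combinations share a site, so they are not independent. The same bases did not always go with a listing. Beta-adaptin-like was not listed at scale position 4 nor B3 domain at 5, although the bases shown from there match those of Smad/FHA. Where the bases parted after 2 to 7, counts were equal in 3 of 14 combinations. PARE tags are longer than the bases shown, so whether the same tags were counted at several loci was not tested. No site outside the members was identical to a member site over all downstream bases shown, where at least 10 were shown. Shorter stretches and partial matches to outside sites were not examined.

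The windows of neighbouring positions could not all hold the neighbouring peaks. At importin the 4 positions in a row sum to 34 tags, whereas their windows held 18 to 26, and at F-box they sum to 23 against windows of 8 to 17. At B3 domain the window of 6 around 244 is smaller than the 10 tags of its 2 positions, which lie 3 bases apart, and at Smad/FHA the window of 6 around 981 is below the sum of 15. In all, 10 of the 13 windows at the 4 loci with several positions were smaller than that sum. Counts at neighbouring positions therefore need not come from the same set of tags or the same depth, and the table names no library for them.

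Over the 15 sites the members held 4 to 12 tags with a median of 6, against 4 to 27 with a median of 5 over the 77 other sites of the table. Of the member sites, 4 lay at exactly 4 tags, with 15 of the 51 pairs, the 2 miRNAs listed at no other sites (miR1135-1001-5p and miR1135-1765-5p) and the whole 65-kDa microtubule-associated-like locus, and these do not pass the abundance over 4 that the study states. The peak made up a smaller part of its window: the median share was 42.9% over the members' sites, with 9 of 15 below 50%, against 80.0% over the others, with 21 of 77 below 50%. Category 0 was given to 43 of 51 member pairs (84.3%), with 7 of category 1 and 1 of category 2, against 63.3% of the 169 pairs of other families. The 19 pairs of miR1135 and miR1136 left out had a higher share still, 18 of 19 (94.7%), so a high share was not particular to the members. Their median window share was 87.5% over 13 sites, and that of the 65 sites of other families was 72.7%. Of the 15 sites, 11 were listed with more than 1 miRNA, 5 with both families and 1 with 7 miRNAs, so pairs are not independent observations, and these differences are given without a test.

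Most cuts were listed 1 to 3 bases away from the base that faces base 10. The listed position faced base 10 in 5 of 51 member pairs (9.80%, Wilson 95% interval 4.26 to 21.0%), base 11 in 19 (37.3%), base 12 in 22 (43.1%) and base 13 in 5 (9.80%). That interval treats the pairs as independent, which they are not, so it may be too narrow. In the 169 pairs of other families base 10 led with 94 pairs (55.6%), followed by base 11 with 48 (28.4%), base 12 with 24 (14.2%) and base 13 with 3 (1.78%). The 19 pairs of miR1135 and miR1136 left out were like the members in this, with 2 at base 10 (10.5%), 2 at base 11, 13 at base 12 (68.4%) and 2 at base 13, so cuts away from base 10 were not particular to the 6 loci. The members' order held for the 21-nt miRNAs, with 4 pairs at base 10, 9 at base 11 and 13 at base 12, and for the 20-nt miRNA, with 2 at base 11 and 3 at base 12. Base 13 was faced by 24-nt miRNAs only, in 5 of their 20 pairs, beside 1 at base 10, 8 at base 11 and 6 at base 12. Importin was the locus with cuts nearest base 10, at 2 of 5 pairs, with the other 3 at base 11.

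Mismatches gathered toward the 3′ end of the miRNAs. The 51 pairs came from 39 combinations of a miRNA and a binding sequence, none of which was free of mismatches: 5 had 1, 3 had 2, 7 had 3, 9 had 4, 13 had 5 and 2 had 6. Of the 145 mismatches in all, 24 were G:U pairs, which the table counted as mismatches in every member pair, and 121 were others. Base 19 was unpaired or G:U in 22 of 39 combinations and bases 17 and 18 in 16 each, whereas no combination had a mismatch at base 7, 10 or 11. Beyond base 12 lay 119 of the 145 (82.1%), and 20 (13.8%) fell in the seed. With the G:U recount applied to the whole table, a seed mismatch was found in 12 of 39 member combinations (30.8%) against 76 of 157 others without gaps (48.4%), and a mismatch at base 10 or 11 in none against 10 (6.37%).

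The length classes overlapped in pairing quality. The 24-nt miRNAs of miR1135 had 1 to 6 mismatches (median 5 over 16 combinations) and the 21-nt miRNAs of that family 1 to 5 (median 4 over 15), both with scores from 1 to 5.5. For miR1136, the 20-nt and the 21-nt miRNA each had a median of 3.5 over 4 combinations, with scores of 3 to 3.5 and 3 to 4. The extra base of miR1136-1373-5p over miR1136-1070-5p faced a mismatch in the F-box sequence, where scores were 4 and 3, and was paired in the Smad/FHA, B3 domain and beta-adaptin-like sequences, where the 2 miRNAs had equal scores.

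Small sequence changes between relatives left the listed sites partly alike. At the 65-kDa microtubule-associated-like and Smad/FHA sites miR1135-1765-5p and miR1135-1920-5p, which differ by G14A (counted on miR1135-1765-5p), had equal scores of 1 and 2, and at B3 domain both scored 5. Only miR1135-1920-5p was listed at F-box, where it faced 3 of the 4 positions with a score of 5.5. The C4G difference of miR1135-2157-5p from miR1136-1373-5p added a seed mismatch at base 4 and raised the score from 3 to 4 at both Smad/FHA and B3 domain. The C12T and T13C differences of miR1135-2439-5p from miR1135-1184-5p raised it from 1 to 3.5 at Smad/FHA and from 3 to 5.5 at B3 domain, at the same positions. Tags belong to a position and not to a miRNA, so they could not differ between relatives there.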

How the data were processed

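PARE tags of 24 leaf libraries were mapped by the study with sPARTA against wheat coding sequences (IWGSC RefSeq v1.0), and targets were predicted with its miRferno module. In the deposited table the PARE abundance is a tag count at a position, and the window abundance is a deposited signal summed around it (the header names 10 nt). The deposited window fraction is the count over that signal (largest gap 0.000481). The authors gave the pairing score, the category as a score of peak prominence, the cleavage position and a p-value, and the deposited corrected p-value was not used here. No normalization is stated, and the depth per library and whether libraries were summed are not given in the sources used here. The study states an abundance over 4 as its filter, but the deposited table holds values of exactly 4 and none below, and these were kept. Columns of values per library numbered 0, so no comparison of groups was fitted and edgeR was not run.

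Members were parsed with Python 3.11.15 and intervals computed with SciPy 1.17.1. Intervals (95%) reflect counting error alone. They treat tags as separate molecules, which tags copied by PCR are not, so they may be too narrow. The base opposite a position was counted from the miRNA 5′ end, paired with the last base of the binding site. Every member locus is named. Full values were planned for the 3 loci of highest abundance per family and for the importin, beta-adaptin-like, B3 domain and Smad/FHA loci, ties to the lower p-value, and sequences for each binding core and each such locus. The members and word lists were chosen with earlier results of these data known. The parsing was tested on made-up pairs. Of the 6 locus IDs, 0 matched the reference gene table, which follows a later assembly, so annotations are the authors'. Alternatives were an abundance over 4, a p-value under 0.01, category 0 only, 1 locus per copy set, a recount of G:U pairs and a cut base counted without gaps.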

Additional observations from a re-analysis of the deposited data

How the results depend on the processing

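None of the settings tried moved a summary by more than 1.5 times. The share facing base 10 also stayed inside its Wilson interval. The alternatives draw on the same pairs that gave that interval, so this is no separate support. Pairs numbered 51, and 36 with an abundance over 4 (the threshold the study states), 46 with a p-value under 0.01 and 43 of category 0. The 15 sites became 11, 15 and 12 in that order, the 13 miRNAs 11, 13 and 13, and the 6 loci 5, 6 and 6. The 65-kDa microtubule-associated-like locus was the one lost, at 4 tags. The median abundance of 6 tags and the median of 4 mismatches were the same under every alternative run, and the share facing base 10 ran from 8.70% to 13.9%. Taking 1 locus per copy set, recounting G:U pairs and leaving out gaps changed no value. These settings had nothing to change and so tested nothing. All 6 loci stayed, no member pair had a gap, and the mismatches already included every G:U pair. No paired analysis was possible because the table carries no library or replicate. Counts of 4 to 12 tags per site carry wide counting intervals, and differences between positions were not tested.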
